A study of Oryza sativa with 12 samples.

Results

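Shoots of the rice genotype K83 were compared with shoots of the rice genotype Jijing88 when both had been in medium with alkali salts. The comparison takes the 3 arrays titled as K83 treatment and the 3 titled as Jijing88 treatment, 6 of the 12 arrays of the series, and leaves out the Affymetrix control probe sets. Every group held hydroponic seedlings that were 7 days old at transfer, with a day of 16 h at 27 °C and a night of 8 h at 23 °C, and each array carried biotin-labelled total RNA from 10 pooled shoots. The alkali groups spent the last 24 h in fresh solution with alkali salts at 50 mM, and the control groups spent it in fresh solution alone. The 4 groups are thus Jijing88 control, Jijing88 alkali, K83 control and K83 alkali, with 3 arrays labelled biological replicates in each. Which salts were used, what pH resulted and how K83 and Jijing88 are related is not stated in the labels. The question is how the shoots of both genotypes differ under the same salts, and whether they differed in the same way without them.

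Alkaline media lower the solubility of iron. Rice, like other grasses, answers iron shortage by making nicotianamine and, from it, mugineic acids, which it secretes from its roots and takes up again as iron complexes. It also has transporters for free ferrous iron, and nicotianamine carries metals within the plant. The gene groups described after the iron genes are the cell cycle, defence compounds, the clock with the chlorophyll pathway, and the transport and hormone genes of a salt-stressed shoot.

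Every value is a signal on the log2 scale, read for 1 probe set on 1 array. A difference of 1 is 2-fold, differences are K83 minus Jijing88 with the standard error of the fit, and a difference is called where limma's adjusted p was under 0.05 over all 57258 probe sets. Array medians lay between 5.12 and 5.18. A group mean below them is close to background. A difference from such a mean is a lower bound on the true one, if the probes match both genotypes alike. Arrays of the same group correlated at 0.995 to 0.997 across probe sets, and arrays of different genotype at 0.982 to 0.986. For RNA integrity, actin probe sets at the 3' end exceeded those at the 5' end by 2.25 ± 0.28 in Jijing88 and by 2.18 ± 0.08 in K83 (SD, n = 3), a difference that did not pass a two-sided exact permutation test (p = 0.8, where 0.1 is the lowest that 3 against 3 allows). The 25S ribosomal RNA signal was 9.68, 7.87 and 9.44 on the Jijing88 alkali arrays and 8.10, 8.53 and 8.18 on the K83 alkali arrays (exact permutation test, p = 0.4). K83 alkali replicate 1 stood apart in some defence genes, and Jijing88 control replicate 3 in iron genes, as given below. In pooled shoots, fewer cells of a type and less RNA per cell cannot be told apart. Nor can a lower RNA level and a sequence change under the probes of 1 genotype.

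Under alkali 8188 probe sets were called, which is 14.3% of those tested. Of these 4035 were higher in K83 (7.05%) and 4153 were lower (7.25%). At least 2-fold differences were found for 1391 probe sets, 566 higher and 825 lower. Differences of 16-fold or more were found for 15 probe sets higher in K83 and 57 lower. In control medium 6658 probe sets (11.6%) were called. The calls of both media shared 3877 probe sets, which is 47.3% of the alkali calls and 58.2% of the control calls. The sign was the same for 3809 of them and opposite for 68. Of the probe sets called at 2-fold or more under alkali, 77.6% were called with the same sign in control. The test of the genotype difference between the media called 360 probe sets (0.629%), 153 with a larger K83 minus Jijing88 difference under alkali (0.267%) and 207 with a smaller one (0.362%). With every array centred on its median that test called 414, of which 110 were larger, so its split by direction depends on the scaling.

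Of 17905 genes 4420 were called under alkali (24.7%). Of the 2457 genes that carry a name beyond a locus number, 692 were called (28.2%), 320 higher in K83 (13.0%) and 372 lower (15.1%). In control 551 of the named genes were called (22.4%), 302 higher (12.3%) and 249 lower (10.1%). The median difference over the named genes was -0.0033 under alkali and 0.038 in control. These shares are the background against which the counts of each gene group below are given. A percentage in brackets after a count of called members is their share of the group. Under alkali it is to be read beside 13.0% higher and 15.1% lower.

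**Figure D1:**
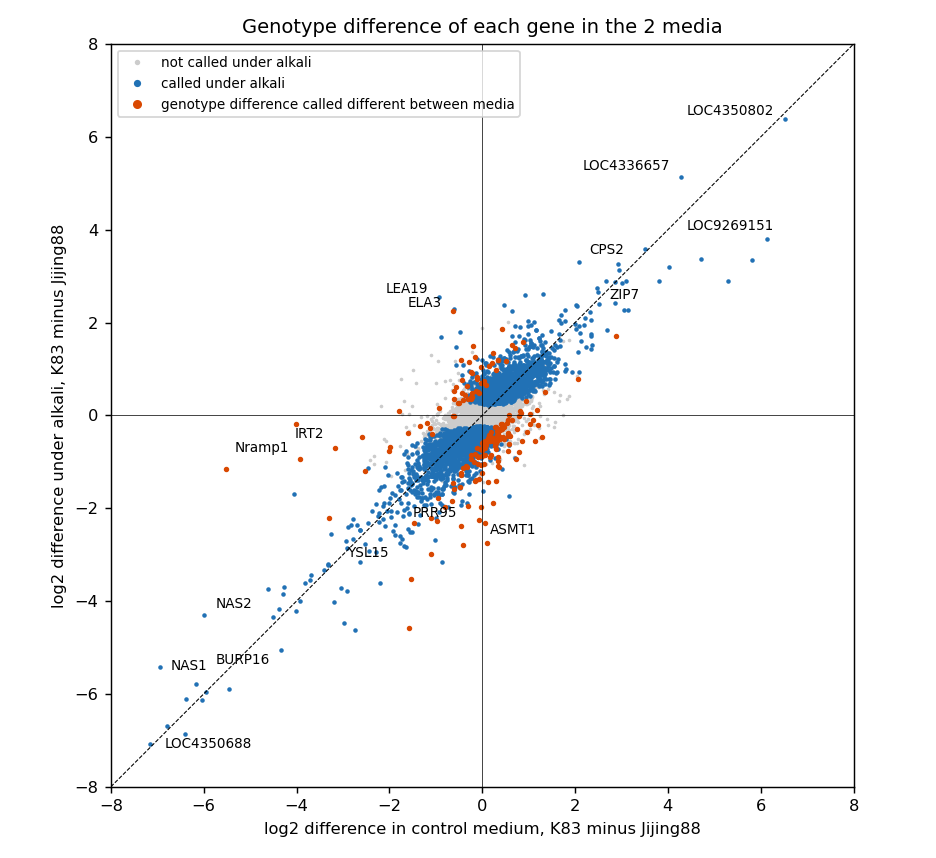
Each point is 1 of 17905 genes. The horizontal axis is the log2 difference, K83 minus Jijing88, in control medium, and the vertical axis is the same difference under alkali, with the dashed line where both are equal. Blue points were called under alkali, grey points were not, and orange points are genes whose genotype difference was called different between the media. NAS1 and LOC4350688 lie at the lower left, low in K83 in both media, and LOC4350802 at the upper right. ELA3 and ASMT1 lie near 0 or on the other side of it in control and away from it under alkali.

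Of the 3 named genes that differed by 16-fold or more, all lower in K83, NAS1 and NAS2 belong to nicotianamine synthesis, and BURP16, described after the iron genes, lay between them. NAS1, a nicotianamine synthase gene on chromosome 3, read 13.76, 13.23 and 13.51 on the Jijing88 alkali arrays and 8.11, 8.02 and 8.13 on the K83 alkali arrays. NAS2, another synthase gene on the same chromosome, read 13.28, 12.87 and 13.09 against 8.80, 8.81 and 8.71. The naming rule for the largest differences took only genes whose groups do not overlap, and these stood well apart. Every K83 array of both genes was still above the array medians. The difference was -5.42 ± 0.60 for NAS1, 42.7-fold (adjusted p = 5e-05), and -4.31 ± 0.52 for NAS2, 19.8-fold (adjusted p = 1e-04). In control it was -6.94 (adjusted p = 5.9e-06) and -5.98 (adjusted p = 6.3e-06), from 11.43, 9.96 and 13.42 in Jijing88 and 5.39, 4.45 and 4.15 in K83 for NAS1. Jijing88 control replicate 3 was the highest of its group for these genes, and without it the control difference was -6.03 for NAS1 and -5.18 for NAS2. NAS3, the third synthase gene, had a difference of -0.45 that did not pass (adjusted p = 0.087).

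YSL15, the transporter that takes up iron bound to mugineic acid, was lower in K83 as well. It read 9.69, 8.60 and 9.13 in Jijing88 and 6.14, 6.36 and 6.67 in K83, a difference of -2.75 ± 0.40 (adjusted p = 4e-04). The groups did not overlap, as the naming rule required. IRT1, a transporter of free ferrous iron, read 9.25, 8.50 and 8.97 against 6.88, 7.01 and 7.004, a difference of -1.94 ± 0.37 (adjusted p = 0.0029). Both were also lower in K83 in control, by -1.77 (adjusted p = 0.0098) and -1.48 (adjusted p = 0.019), and without Jijing88 control replicate 3 these control differences were -1.18 and -0.87. The related genes YSL9 (-0.66) and YSL16 (-0.52) and the metal transporter gene NRAMP3 (-0.53) were lower by less.

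For Nramp1 and IRT2 the genotypes were far apart in control and closer under alkali. Nramp1, a metal transporter gene on chromosome 7, read 13.19, 12.76 and 12.99 in Jijing88 alkali and 12.16, 11.90 and 12.03 in K83 alkali. In control it read 10.92, 10.25 and 12.06 in Jijing88 against 7.17, 7.16 and 7.13 in K83. The arrays did not overlap under alkali, but the difference of -0.95 ± 0.31 there did not pass (adjusted p = 0.061). It passed in 2 of the 12 fits that each left out 1 array, and in 3 further alternatives, the 6 alkali arrays alone among them. In control the difference was -3.93 (adjusted p = 2.5e-06), and the difference between the media, 2.98, was called (adjusted p = 0.012). IRT2, a second ferrous iron transporter gene, followed with -0.71 ± 0.30 under alkali (adjusted p = 0.15), -3.16 in control (adjusted p = 1.4e-05) and 2.45 between the media (adjusted p = 0.027). That last call was made in 7 of the 12 fits that left out 1 array.

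ZIP7 and ZIP4 differed in the other direction from IRT1, a member of the same ZIP family. ZIP7, a zinc and iron transporter gene on chromosome 5, read 6.95, 7.10 and 6.95 in Jijing88 and 9.58, 9.83 and 9.81 in K83, a difference of 2.74 ± 0.12 (adjusted p = 7.1e-09). ZIP4, a zinc transporter gene, read 8.00, 7.76 and 7.97 against 9.39, 9.59 and 9.32, a difference of 1.52 ± 0.17 (adjusted p = 5.3e-05). All K83 arrays were above all Jijing88 arrays for both genes, as the naming rule required of ZIP7. Both were also higher in control, by 2.47 and 2.37. Not called were ZIP2 (0.19, adjusted p = 0.33) and ZIP1 (-0.23, adjusted p = 0.58). The vacuolar transporter gene VIT1.2 (1.28, called in 7 of the 12 fits that left out 1 array), the uptake gene NRAMP5 (0.53) and the regulator gene IDEF1 (0.33) were called higher in K83. In all, 5 of 24 genes of iron acquisition and homeostasis were called higher in K83 under alkali (20.8%) and 7 lower (29.2%), with a median of -0.41. In control 4 were higher and 9 lower, and 2 were called different between the media. The higher calls under alkali fell to 3 without Jijing88 alkali replicate 1 or without any 1 of the K83 alkali arrays, and the lower calls were 11 without Jijing88 control replicate 3. Of the alkali calls, 8 were called with the same sign in control. Among members that were not called, the aminotransferase gene NAAT1 of mugineic acid synthesis had -0.79 (adjusted p = 0.26) and the regulator gene BHLH063 had -0.56 (adjusted p = 0.38).

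**Figure D2:**
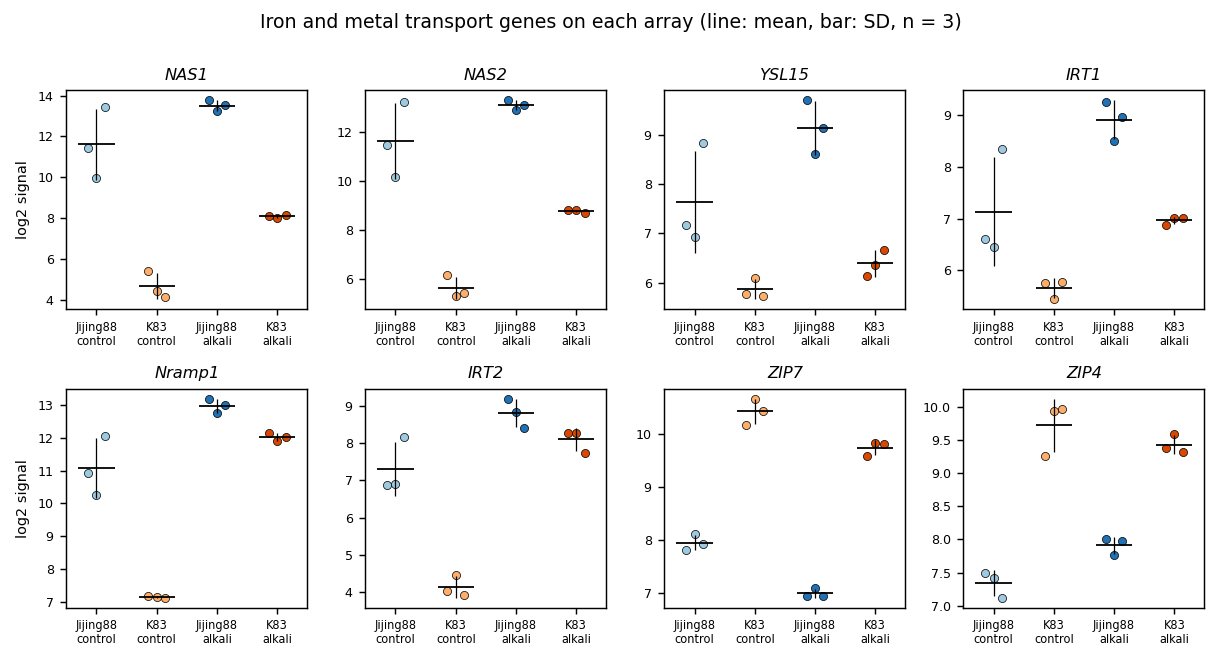
Log2 signal of 8 iron and metal transport genes on all 12 arrays, by genotype and medium. Points are arrays, horizontal lines are group means and vertical bars the SD (n = 3). NAS1, NAS2, YSL15 and IRT1 are lower in K83 in both media, Nramp1 and IRT2 are closer to the Jijing88 level under alkali (12.03 beside 12.98 for Nramp1) than in control, where they are far below it, and ZIP7 and ZIP4 are higher in K83 in both media.

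The other named genes with the largest deficit in K83 belong to several pathways. BURP16, which codes for a protein with a BURP domain, read 13.05, 12.09 and 12.81 in Jijing88 and 7.66, 7.46 and 7.68 in K83, a difference of -5.05 ± 0.21 (adjusted p = 2.4e-09). MT1B, a metallothionein gene, read 12.42, 11.65 and 11.996 against 9.18, 9.17 and 9.11, a difference of -2.86 ± 0.30 (adjusted p = 2.7e-05). PSK2, the gene for a precursor of the growth peptide phytosulfokine, read 10.25, 9.62 and 10.06 against 7.30, 7.40 and 7.48, a difference of -2.59 ± 0.15 (adjusted p = 7.9e-08). In each of them the K83 arrays lay close together and far below the lowest Jijing88 array. MADS56, a regulator of flowering time, differed by -2.19 ± 0.10 (adjusted p = 1.3e-08), TGAL1, a bZIP transcription factor gene, by -2.22 ± 0.24 (adjusted p = 4e-05) and Adh2, an alcohol dehydrogenase gene, by -2.15 ± 0.44 (adjusted p = 0.0047). All of these but Adh2, at -1.33 (adjusted p = 0.071), were also called lower in control, with differences from -1.89 for PSK2 to -4.33 for BURP16. The gene listed as cap2 differed by -2.28 under alkali and by -0.97 in control, and the difference of -1.31 between the media was called (adjusted p = 0.045), but in only 1 of the 12 fits that left out 1 array. PM19L, a membrane protein gene of the abscisic acid response, differed by -2.37 at 1 probe set (adjusted p = 0.0021) and by 0.0041 at its other one.

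Of the named genes with the largest excess in K83, ZIP7 and, as given below, KSL4, CYP71Z6 and ILL8 were also higher in control. So were METK3, LOGL3 and MADS58. METK3, an S-adenosylmethionine synthase gene, read 5.61, 5.52 and 5.66 in Jijing88 and 7.69, 7.65 and 7.75 in K83, a difference of 2.102 ± 0.12 (adjusted p = 8.6e-08) beside 2.22 in control. LOGL3, which belongs to a family of enzymes that activate cytokinins, read 7.18, 7.56 and 7.29 against 8.93, 9.52 and 9.33, a difference of 1.92 ± 0.19 (adjusted p = 2.1e-05) beside 2.08 in control. MADS58, a floral homeotic gene, read 5.01, 5.24 and 4.80 against 7.30, 6.57 and 7.03, a difference of 1.95 ± 0.21 (adjusted p = 3.2e-05) beside 2.20 in control. The groups did not overlap for any of these genes, as the naming rule required. The Jijing88 mean of MADS58 was below the array medians. LEA19, the gene of a late embryogenesis abundant protein, read 3.90, 4.18 and 4.17 in Jijing88 alkali, close to background, and 6.88, 6.304 and 6.72 in K83 alkali. Its difference was 2.55 ± 0.56 (adjusted p = 0.0072), a lower bound. In control it read 4.17, 3.90 and 3.63 in K83 and 3.73, 4.002 and 6.76 in Jijing88, where replicate 3 stood apart. The difference between the media, 3.48, did not pass with all arrays (adjusted p = 0.069), and was 2.52 without that array (adjusted p = 0.001).

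Genes of the cell cycle and of DNA replication were mostly higher in K83. Of 41 measured members 24 were called higher under alkali (58.5%, beside 13.0% of the named genes) and 2 lower, with a median of 0.56. In control 22 were called higher and 1 lower, with a median of 0.59, and 22 of the alkali calls had the same sign and a call in control. By limma 0 were called different between the media, with 8 at an unadjusted p under 0.05. Of the members whose names begin with MCM, subunits of the replicative helicase and their relatives, MCM2 (0.95), MCM3 (1.16), MCM4 (1.17), MCM5 (1.02), OsMCM6 (0.94) and MCM7 (0.78) were called higher, and MCM8 (-0.11) and MCM9 (0.24) were not called. MCM4 read 7.49, 7.29 and 7.57 in Jijing88 and 8.61, 8.70 and 8.56 in K83 (adjusted p = 4.2e-05), with no overlap.

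Cyclin genes were among the members called higher. CYCD2-2, a D-type cyclin gene, read 5.90, 5.88 and 6.01 against 7.18, 7.19 and 7.32, a difference of 1.30 ± 0.11 (adjusted p = 3.7e-06). CYCA2-1, an A-type cyclin gene, read 8.05, 8.19 and 8.07 against 9.20, 9.46 and 9.34, a difference of 1.23 ± 0.12 (adjusted p = 1.6e-05). The replication protein gene RPA1B (1.06), the origin recognition gene ORC3 (0.79), and the kinase genes CDKA-2 (1.07) and CDKB2-1 (0.59) were called higher, and KRP6 (0.95) and KRP5 (0.56), inhibitors of those kinases, were as well. The members called lower were a further inhibitor gene, KRP4 (-0.98, adjusted p = 1.5e-05, with 0.13 at its other probe set), and the D-type cyclin gene CYCD5-1 (-0.34). Over the alternative fits and the fits without 1 array, 19 to 24 members were called higher and 1 to 3 lower, with medians of 0.44 to 0.60. The lower calls were 1 without Jijing88 alkali replicate 1 or 2 and without K83 alkali replicate 1 or 2. Of 5 marker genes of shoot meristems 0 were called under alkali by limma, and 0 had an unadjusted p under 0.05, with OSH1 at 0.68. Their mean level per array was 4.95 to 5.20 in Jijing88 alkali and 4.99 to 5.53 in K83 alkali, near the array medians. That level was raised by FON1, with means of 8.89 in Jijing88 alkali and 9.03 in K83 alkali. OSH1, HOS9, BHLH123 and BFL1 had means below the array medians in both groups, close to background. With most markers that dim, the 0 calls cannot show whether meristem content differed. Its part in the cell cycle difference was not tested.

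**Figure D3:**
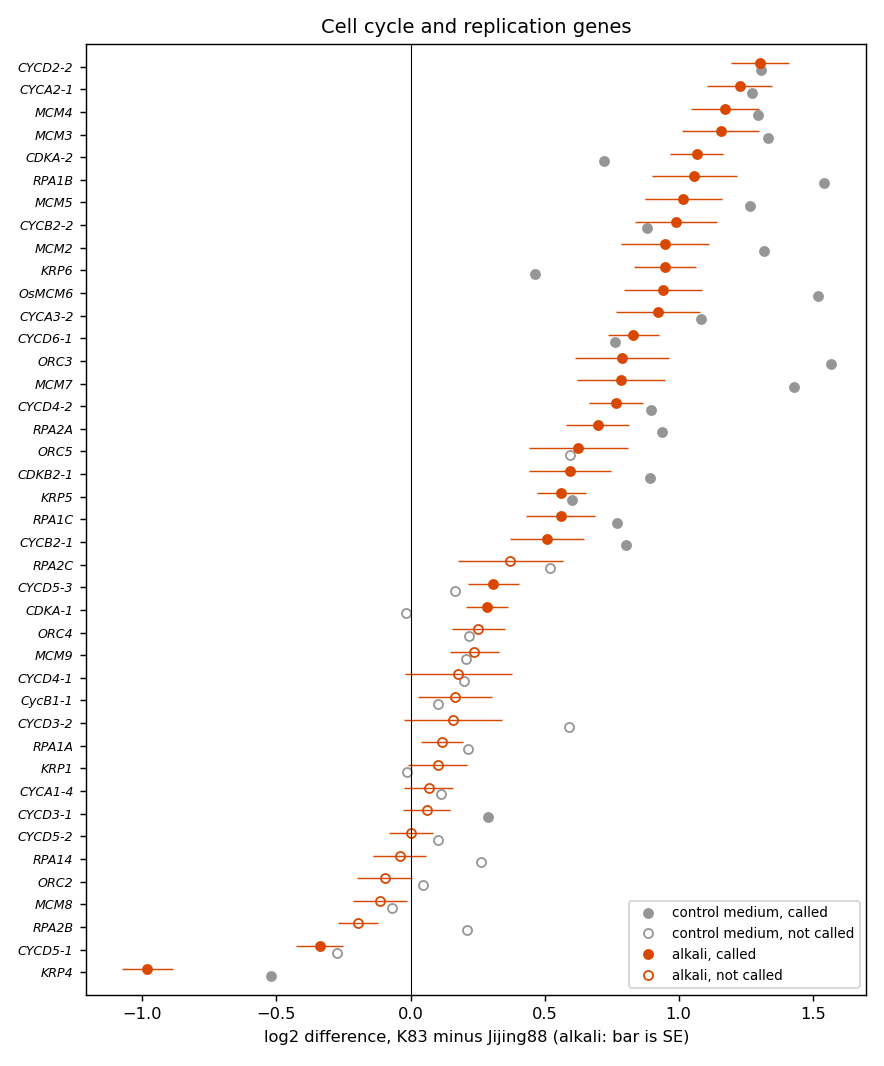
Log2 difference, K83 minus Jijing88, of the 41 cell cycle and replication genes. Orange points are the differences under alkali with their standard error, grey points those in control, and filled points were called. Most members lie to the right of 0 in both media, from CYCD2-2 at 1.30 down to KRP4 at -0.98 under alkali.

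Of the defence genes that were called, most of those for diterpenoid synthesis were higher in K83 and most chitinase genes were lower, while 16 of the 27 members were not called. Rice makes labdane diterpenoid phytoalexins from geranylgeranyl diphosphate by a copalyl diphosphate synthase, a kaurene synthase-like enzyme and cytochromes P450. CPS2, a copalyl diphosphate synthase gene on chromosome 2, read 4.62, 3.99 and 3.57 in Jijing88, below the array medians, and 5.77, 8.63 and 7.73 in K83. KSL4, a kaurene synthase-like gene on chromosome 4, read 5.96, 5.21 and 4.96 against 6.54, 8.52 and 7.85. The groups did not overlap, as the naming rule required, but K83 replicate 1 was the lowest K83 array for both. The differences were 3.31 ± 0.67 for CPS2 (adjusted p = 0.0044) and 2.26 ± 0.52 for KSL4 (adjusted p = 0.0097), and 4.12 and 2.81 without K83 replicate 1. In control they were 2.08 (adjusted p = 0.066) and 1.77 (adjusted p = 0.042).

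The cytochrome P450 genes of diterpenoid synthesis CYP701A8 (1.96, adjusted p = 0.0059) and CYP99A2 (1.92, adjusted p = 0.02) had the same order of arrays, with K83 replicate 1 at 6.84 and 6.68 and the other K83 arrays at 7.67 to 8.93. CYP99A2 was called in 8 of the 12 fits that left out 1 array. CYP71Z6 was more even, at 3.92, 3.62 and 3.88 in Jijing88 and 5.85, 6.14 and 6.09 in K83, a difference of 2.22 ± 0.17 (adjusted p = 1.3e-06), and at 2.31 in control. Its Jijing88 mean was below the array medians. The cytochrome P450 gene CYP76M7 was instead lower in K83, by -0.87 under alkali (adjusted p = 0.025) and by -1.30 in control (adjusted p = 0.0025). For CYP99A3 (0.21), CYP76M5 (0.25) and CYP76M8 (0.20) no difference was called.

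Chitinase genes code for enzymes that cut fungal cell walls. Of those that were called, 3 were lower in K83 and 1 higher, too few to give the family a direction. Cht4 read 9.25, 8.98 and 8.87 in Jijing88 and 5.96, 8.07 and 7.44 in K83, and Cht5, also on chromosome 4, read 9.32, 8.89 and 9.27 against 6.62, 8.19 and 7.60. K83 replicate 1 was again the lowest array, here farthest from Jijing88. The differences were -1.88 ± 0.40 (adjusted p = 0.0057) and -1.70 ± 0.30 (adjusted p = 0.0016), and -1.28 and -1.27 without that array. Cht11 differed by -0.86 (adjusted p = 0.027), which did not pass without that array (-0.61, adjusted p = 0.12). Cht10 read 7.71, 7.94 and 7.87 against 9.16, 8.79 and 8.96, a difference of 1.13 ± 0.11 (adjusted p = 1.4e-05) that was 0.22 in control and was called different between the media (0.92, adjusted p = 0.021). In all, 7 of 27 genes of phytoalexins and pathogenesis-related proteins were called higher in K83 (25.9%) and 4 lower (14.8%), with a median of 0.32. In control 2 were higher and 3 lower. Without K83 alkali replicate 1 the counts under alkali were 10 higher and 2 lower. The lower calls were also 2 without Jijing88 alkali replicate 1, without K83 alkali replicate 3, and with trend and robust moderation.

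**Figure D4:**
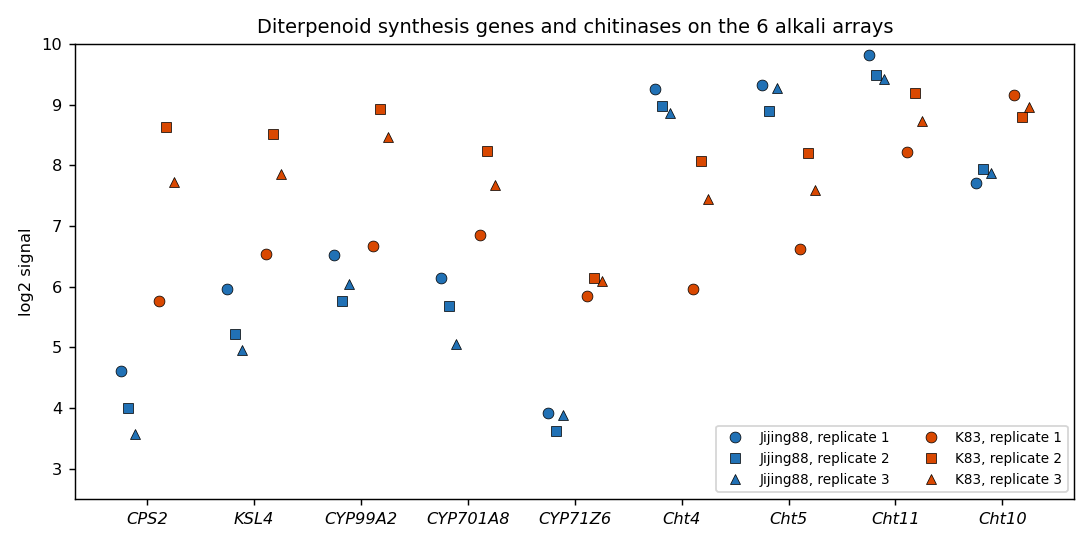
Log2 signal of 5 diterpenoid synthesis genes and 4 chitinase genes on the 6 alkali arrays. Blue is Jijing88 and orange K83, and the symbol gives the replicate. CPS2, KSL4, CYP99A2, CYP701A8 and CYP71Z6 are higher in K83, with replicate 1 (circle) the lowest K83 array in each, and Cht4, Cht5 and Cht11 are lower in K83, with the same array the lowest (5.96 for Cht4).

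Of the named genes 42 (1.71%) had a genotype difference that was called different between the media, 11 with a larger K83 minus Jijing88 difference under alkali (0.448%) and 31 with a smaller one (1.26%). Among the 31 were 2 of 20 clock and heading date genes (10%) and 4 of 15 chlorophyll and photosynthesis genes (26.7%). They also held 2 of 6 melatonin genes (33.3%) and 1 of 25 genes of abscisic acid and LEA proteins (4%). ASMT1, an N-acetylserotonin methyltransferase gene, read 6.83, 6.47 and 6.15 in Jijing88 alkali and 4.17, 4.19 and 4.33 in K83 alkali, close to background. The groups were far apart, by -2.25 ± 0.17 (adjusted p = 1.4e-06), while in control the means were 3.81 and 3.75 and the difference was -0.06. PRR95, a pseudo-response regulator of the clock, read 12.70, 12.76 and 12.87 against 10.88, 10.75 and 10.83, a difference of -1.96 ± 0.16 (adjusted p = 2.5e-06) beside -0.30 in control (adjusted p = 0.28). The differences between the media were -2.19 for ASMT1 (adjusted p = 0.0017) and -1.66 for PRR95 (adjusted p = 0.0058), and both were called in all 12 fits that left out 1 array.

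For PORA, a protochlorophyllide reductase gene, the sign itself turned. It read 10.08, 9.96 and 10.21 in Jijing88 alkali and 9.63, 9.51 and 9.44 in K83 alkali, lower in K83 by -0.56 ± 0.13 (adjusted p = 0.009), and in control it was higher in K83 by 1.13 (adjusted p = 5.3e-05). CHLH, a subunit gene of magnesium chelatase, went from 0.97 in control (adjusted p = 0.0017) to -0.36 under alkali (adjusted p = 0.2), with 0.35 there at its other probe set, and the light-harvesting gene CAB2R from 0.04 to -0.59 (adjusted p = 0.00064). GluTR, glutamyl-tRNA reductase at the start of the pathway, was higher in K83 in both media, at 9.31, 9.90 and 9.95 against 11.41, 11.33 and 11.41 under alkali, a difference of 1.66 ± 0.20 (adjusted p = 0.00011). NYC1, a chlorophyll b reductase gene, was higher by 0.81 (adjusted p = 0.006). Of 15 chlorophyll and photosynthesis genes 3 were called higher in K83 under alkali (20%) and 4 lower (26.7%), with a median of 0.14. In control 4 were higher and 0 lower. Called different between the media were 4 of the 15, each with a lower K83 minus Jijing88 difference under alkali. Without Jijing88 control replicate 3 the higher calls under alkali were 5. PSAG, a photosystem I gene, was one of the 4 called different between the media, with -0.94 (adjusted p = 0.047). It was lower in K83 under alkali (-0.67), but its other probe set had the opposite sign there (0.26).

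Clock and heading date genes were lower in K83 in 7 of 20 cases under alkali (35%) and higher in 3 (15%), with a median of -0.26. In control 6 were lower and 3 higher. Only 1 was called higher under alkali without Jijing88 alkali replicate 1, and likewise without K83 alkali replicate 2 or 3. PRR73 (-0.72), PRR37 (-0.60), PRR1 (-0.53) and GI (-0.31), all clock genes, and the flowering activator gene MADS50 (-0.59) were lower, beside PRR95 and MADS56. Hd1, a heading date gene, was higher by 0.93 ± 0.13 (adjusted p = 0.00024), at 4.33, 4.77 and 4.44 in Jijing88, below the array medians, and 5.42, 5.30 and 5.61 in K83. CCA1, a morning gene of the clock, was higher in K83 in control by 1.30 (adjusted p = 0.00052) and not called under alkali (-0.47, adjusted p = 0.13). The difference between the media was -1.77 (adjusted p = 0.014) at its brighter probe set and -0.80 over both of its probe sets, which did not pass.

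ABA1, the zeaxanthin epoxidase gene of abscisic acid synthesis, read 9.70, 9.04 and 9.38 in Jijing88 alkali and 8.33, 8.15 and 8.31 in K83 alkali. The difference of -1.11 ± 0.13 (adjusted p = 7.9e-05) beside 0.36 in control was called different between the media (-1.47, adjusted p = 0.0041). The receptor gene PYL11 (-0.85) and the kinase genes SAPK3 (-0.72), SAPK6 (-0.63), OsSAPK2 (-0.62) and SAPK4 (-0.44) were lower in K83 under alkali, and the kinase gene SAPK1 (0.39), the catabolic gene ABA8OX2 (0.32) and the dehydrin genes Dhn1 (0.74) and RAB16C (0.66) were higher, with LEA19. The other probe sets of Dhn1 gave -0.13 and -0.07. That makes 5 of 25 genes of abscisic acid and LEA proteins higher (20%) and 6 lower (24%), with a median of 0.04. In control 2 were higher and 8 lower. Of 6 melatonin genes 2 were lower under alkali (33.3%), ASMT1 and ASMT3 (-0.52), and 0 higher, with a median of 0.17, beside 1 higher in control. These counts are unstable, with 1 to 3 higher without Jijing88 control replicate 1 or 3 or Jijing88 alkali replicate 2, and 1 lower without Jijing88 alkali replicate 2 or 3 or K83 alkali replicate 1 or 2.

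Genes with a larger K83 minus Jijing88 difference under alkali, besides Nramp1 and IRT2, included ELA3, an early nodulin-like gene. It read 5.75, 6.25 and 5.89 in Jijing88 alkali and 8.53, 7.96 and 8.14 in K83 alkali, a difference of 2.25 ± 0.28 (adjusted p = 0.00013), beside -0.63 in control (adjusted p = 0.19). ILL8, of a family that frees auxin from its conjugates, read 7.42, 7.71 and 7.44 against 9.27, 9.47 and 9.44, a difference of 1.87 ± 0.12 (adjusted p = 2.8e-07), beside 0.42 in control. Neither gene overlapped between the groups, as the naming rule required. The differences between the media were 2.88 (adjusted p = 0.0077) and 1.45 (adjusted p = 0.0024). PIP2-7, a water channel gene, was higher in K83 under alkali by 0.91 ± 0.16 (adjusted p = 0.0015) and at -0.23 in control. Its difference between the media, 1.14, was called (adjusted p = 0.039), and in 2 of the 12 fits that left out 1 array.

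Opposite calls in the media were made for 30 genes, 6 of them named. PORA, NIA1, ASMT3, OsTrx03 and SK1 were higher in K83 in control and lower under alkali, and GH3-8, which codes for an enzyme that conjugates auxin, went the other way. NIA1, nitrate reductase, read 8.43, 8.08 and 8.35 in Jijing88 alkali and 7.55, 7.54 and 7.46 in K83 alkali, a difference of -0.77 ± 0.14 (adjusted p = 0.0022), beside 0.55 in control. Its other probe set gave 0.046 under alkali. GH3-8 differed by 0.62 under alkali and -0.56 in control, and the thioredoxin gene OsTrx03 by -0.47 and 0.45. SK1 differed by -0.39 under alkali and 0.34 in control. BGLU22, a beta-glucosidase gene, was lower under alkali by -1.40 ± 0.24 (adjusted p = 0.0014) and at 0.31 in control, and was called different between the media (-1.71, adjusted p = 0.043).

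**Figure D5:**
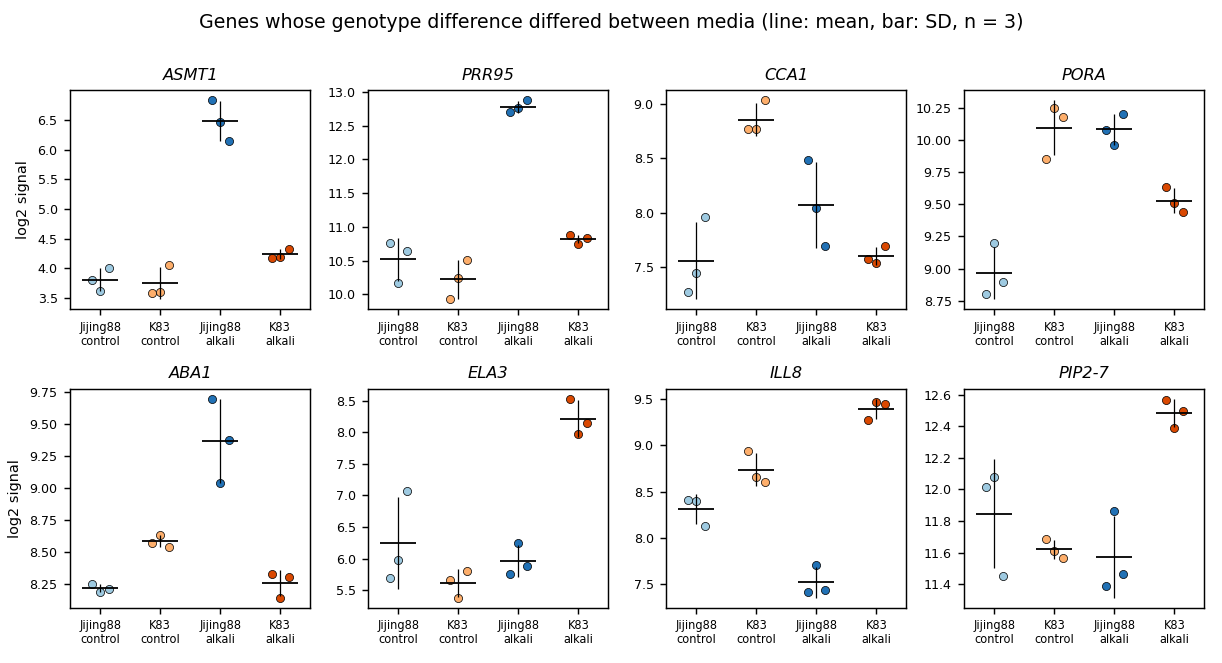
Log2 signal on all 12 arrays of 8 genes whose genotype difference was called different between the media. Points are arrays, horizontal lines group means and vertical bars the SD (n = 3). ASMT1, PRR95 and ABA1 are higher under alkali in Jijing88 than in the other 3 groups, CCA1 is highest in K83 control, PORA is lowest in Jijing88 control, and ELA3, ILL8 and PIP2-7 are highest in K83 alkali.

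In ion transport, 7 of 24 genes for sodium, potassium and proton transport were lower in K83 under alkali (29.2%) and 2 higher (8.33%), with a median of -0.11. In control 6 were lower and 1 higher. Leaving out K83 alkali replicate 1 or 2 gave 4 lower under alkali. The lower members are potassium transporter genes, a channel gene and genes of CIPK kinases. HAK1, a high-affinity potassium transporter gene, read 11.31, 10.88 and 10.99 in Jijing88 and 10.09, 10.11 and 10.13 in K83, a difference of -0.95 ± 0.14 (adjusted p = 0.00037), with -1.09 at its other probe set. The groups did not overlap. AKT1, a potassium channel gene, differed by -0.52 (adjusted p = 0.0018), and HAK23 (-0.60), HAK7 (-0.48), HAK10 (-0.46) and the kinase gene CIPK24 (-0.31) were lower too. CIPK23, a kinase gene that acts on AKT1, differed by -1.46 at its brighter probe set (adjusted p = 8.6e-05) and by -0.15 at the other. Higher were the calcium exchanger gene CAX1a (0.93, adjusted p = 0.00022) and HAK25 (0.45). HKT1.5, a sodium transporter gene, had a difference of -0.09 (adjusted p = 0.69).

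Of 25 aquaporin genes 3 were higher in K83 under alkali (12%) and 4 lower (16%), with a median of 0.06, beside 2 and 2 in control. The higher calls were 5 without Jijing88 control replicate 2 or 3 and with the alkali arrays alone, 6 with trend and robust moderation, and 7 without dim probe sets. Lsi6, a silicon channel gene, read 9.65, 9.68 and 9.94 in Jijing88 and 10.86, 10.74 and 10.89 in K83, a difference of 1.07 ± 0.12 (adjusted p = 4.1e-05) that was 0.14 in control and was called different between the media (0.93, adjusted p = 0.028). TIP4-2, a tonoplast channel gene, was lower by -1.20 ± 0.16 (adjusted p = 0.00019). Of 14 nitrogen genes 2 were higher (14.3%) and 4 lower (28.6%), with a median of -0.35, beside 1 and 4 in control. Without Jijing88 control replicate 3 the lower calls were 7, and the higher calls were 1 in 10 of the alternatives, among them those without Jijing88 control replicate 1, any 1 of the Jijing88 alkali arrays, K83 control replicate 1 or K83 alkali replicate 2 or 3. OsGS1;2, a cytosolic glutamine synthetase gene, differed by -1.03 ± 0.11 (adjusted p = 3e-05) and AMT2-1, an ammonium transporter gene, by -1.01 ± 0.14 (adjusted p = 3e-04). NRT2.3, a nitrate transporter gene, differed by -0.87 (adjusted p = 0.022), and Fd-GOGAT, a glutamate synthase gene, was higher by 0.55. Of 13 phosphate genes 2 were higher (15.4%) and 2 lower (15.4%), with a median of 0.12 and the same counts in control. Leaving out 1 alkali array lowered 1 of these counts or both to 1, whichever array it was. The other count could rise, with 1 higher and 3 lower without Jijing88 alkali replicate 1. Without K83 alkali replicate 2 it was 3 higher and 1 lower. SPX3, a sensor of phosphate status, was higher in K83 by 0.79 under alkali and by 2.06 in control, a difference between the media of -1.27 (adjusted p = 0.03). PHT1-4, a phosphate transporter gene, differed by -0.69 (adjusted p = 0.018), and PHO1-2 by -0.72 at 1 of its 3 probe sets (adjusted p = 0.0012) and by -0.09 in the median of all.

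Of 21 jasmonate genes 4 were lower in K83 under alkali (19.0%) and 0 higher, with a median of -0.18. In control 3 were lower and 0 higher. The lower calls under alkali were 2 without Jijing88 alkali replicate 1 or K83 alkali replicate 1. AOS2, an allene oxide synthase gene of jasmonate synthesis, read 8.55, 8.42 and 8.998 in Jijing88 and 6.91, 7.59 and 7.33 in K83, a difference of -1.38 ± 0.23 (adjusted p = 0.0012) beside -1.43 in control, with no overlap of the groups. JAR1 (-0.48), which conjugates jasmonate to isoleucine, and the receptor gene COI1B (-0.45) were lower by less. JAR1 is also counted among the 54 auxin genes, of which 4 were higher (7.41%) and 4 lower (7.41%), with a median of 0.00065. PIN5A, an auxin transporter gene, read 8.67, 8.84 and 9.06 against 7.80, 7.72 and 7.89, a difference of -1.05 ± 0.10 (adjusted p = 8.9e-06) that was 0.04 in control and was called different between the media (-1.09, adjusted p = 0.0041). GH3.4, of the same family as GH3-8, was higher by 1.02 (adjusted p = 0.00036). Of 9 ethylene genes 2 were higher (22.2%) and 1 lower (11.1%), with a median of -0.17, beside 0 and 1 in control. ACS2, of ethylene synthesis, was higher by 0.95 (adjusted p = 0.0095), the receptor gene ERS2 by 0.66, and ACO1, of the last step of synthesis, was lower by -0.55 (adjusted p = 0.0024). Of 24 cytokinin genes 3 were higher (12.5%) and 1 lower (4.17%), with a median of 0.0080, beside 2 and 2 in control. Only 1 was called higher without Jijing88 alkali replicate 2 or 3 or K83 alkali replicate 3, and 0 lower by limma without Jijing88 alkali replicate 2, K83 control replicate 1 or K83 alkali replicate 2 or 3. The response regulator gene RR9 was higher by 1.204 (adjusted p = 0.018) and RR2 by 0.49 (adjusted p = 0.028), and CKX5, of cytokinin breakdown, was lower by -0.35 (adjusted p = 0.041).

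Of 58 cell wall growth genes 10 were higher in K83 under alkali (17.2%) and 3 lower (5.17%), with a median of 0.07. In control 3 were higher and 6 lower. The 10 fell to 4 without K83 alkali replicate 3, to 5 without K83 alkali replicate 2, without Jijing88 alkali replicate 1 or with the alkali arrays alone, and to 6 without Jijing88 alkali replicate 2. EXPB2, a beta-expansin gene, read 8.59, 8.45 and 8.64 in Jijing88 and 10.49, 10.39 and 10.38 in K83, a difference of 1.86 ± 0.13 (adjusted p = 7.9e-07). The cellulose synthase-like genes CSLE1 (-1.51, adjusted p = 2e-05) and CSLH1 (-0.62) were lower. Of 27 starch and sucrose genes 5 were higher (18.5%) and 8 lower (29.6%), with a median of -0.06, beside 4 and 3 in control. The lower calls were 5 without Jijing88 alkali replicate 3 or K83 alkali replicate 2. GBSS1, the granule-bound starch synthase of the waxy locus, differed by -1.71 ± 0.13 at its brightest probe set (adjusted p = 2.1e-06), and its 5 other probe sets gave -0.82 to -0.07. The sucrose synthase gene SUS4 was lower by -0.76 and the sugar transporter gene SWEET14 higher by 0.74 (adjusted p = 0.003). Of 42 heat shock genes 3 were higher (7.14%) and 8 lower (19.0%), with a median of -0.01, beside 2 and 5 in control. The higher calls were 1 without Jijing88 alkali replicate 3 and 6 without dim probe sets. The small heat shock protein gene HSP22.3 was lower by -0.90 ± 0.11 (adjusted p = 9.9e-05) beside -0.10 in control, and the heat shock factor genes HSFA6B (0.82) and HSFC1A (-0.79) went in opposite directions.

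Of 24 stress transcription factor genes 4 were lower and 0 higher under alkali, with a median of -0.18, beside 2 and 0 in control. The share called lower under alkali, 16.7%, was near the 15.1% of the named genes. The lower calls were 1 without Jijing88 alkali replicate 1, 2 without K83 alkali replicate 2, and 7, with 1 higher, with the alkali arrays alone. Without Jijing88 control replicate 3 or K83 control replicate 2, and without dim probe sets, 1 was called higher as well. NAC2 (-0.93, adjusted p = 2e-04), NAC45 (-0.90, adjusted p = 0.015), NAC071 (-0.65) and DREB2B (-0.58) were the ones called. Of 19 antioxidant genes 4 were higher and 2 lower, with a median of -0.07, beside 3 and 2 in control. Without K83 alkali replicate 3 the higher calls were 2, and the lower calls were 5 with trend and robust moderation and 6 without dim probe sets. The ascorbate peroxidase genes APX8 (0.73, adjusted p = 0.00028) and APX1 (0.68, adjusted p = 0.0015) were higher, and the glutathione S-transferase gene GSTU6 (0.53) was higher at 1 of its 2 probe sets. Of 6 disease resistance genes SWEET11 (0.55), which is also counted among the sugar genes, was higher and Pi21 (-0.49) lower, and with the alkali arrays alone 2 were lower. In control SWEET11 was again higher (0.55), WRKY62, a transcription factor gene, was lower (-0.98, adjusted p = 0.022), and Pi21 was not called (-0.16). Of 4 glyoxylate cycle and organic acid genes 0 were called by limma under alkali, with 1 at an unadjusted p under 0.05. MS, malate synthase, read 11.56, 8.50 and 10.54 in Jijing88 and 8.61, 8.91 and 8.78 in K83, so that the groups overlapped through Jijing88 replicate 2, which also had the lowest 25S ribosomal RNA signal. Its difference of -1.43 (adjusted p = 0.092) was -2.28 without that array (adjusted p = 0.00014).

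The largest differences of all were in genes with only a locus number, and they were present in both media. LOC4350688, on chromosome 11, read 11.10, 11.06 and 11.03 in Jijing88 alkali and 3.89, 3.98 and 4.07 in K83 alkali, a difference of -7.08 ± 0.12 (adjusted p = 2.3e-13) beside -7.15 in control. LOC4349188 on chromosome 10 differed by -6.86, LOC4352036 on chromosome 12 by -6.70 and LOC107275256 on chromosome 6 by -6.14. In all of these the K83 mean was close to background. The differences are thus lower bounds at those probe sets only, and only if no sequence change lies under them. In the other direction LOC4350802 on chromosome 11 read 3.999, 4.33 and 4.61 in Jijing88, close to background, and 10.77, 10.65 and 10.69 in K83, a difference of 6.39 ± 0.15 (adjusted p = 6.8e-12). LOC4336657 on chromosome 4 differed by 5.13, LOC9269151 on chromosome 5 by 3.80 and LOC4325215 on chromosome 1 by 3.58. Further probe sets of a gene did not always follow, with 1.46 for LOC4349188 and with -0.86 and 6.03 for LOC4350802. Of 836 called genes with several probe sets, all others had the same sign in 623. Another was called with the same sign in 322 and with the opposite sign in 24.

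Differences of 16-fold or more were called for 20 genes, 18 of them lower in K83, and all 20 were called with the same sign in control. The K83 mean was below the array medians in 10 of the 18. Chromosome 5, with 1510 of the 17905 measured genes, held 6 of the 20, and chromosome 9, with 962, held 3. By position, the share of genes called under alkali was 21.4% on chromosome 8 to 27.5% on chromosome 11, beside 24.7% of all genes. The longest runs of neighbouring measured genes called in 1 direction had 6 genes. On chromosome 2 LOC4331075 (0.53), LOC4331076 (1.06), LOC4331077 (0.36), LOC4331078 (0.75), LOC4331079 (1.77) and LOC4331082 (0.72) were higher in K83. On chromosome 5 LOC4339579 (-0.63), LOC4339580 (-0.31), LOC4339581 (-0.71), LOC4339582 (-0.61), LOC4339583 (-0.46) and NINJA1 (-0.67), a repressor gene of jasmonate signalling, were lower. A run of 5 elsewhere on chromosome 5, chosen after its values were seen, held the largest differences between neighbours. LOC4339505 (-5.96), LOC4339506 (-4.18), LOC4339507 (-5.78) and LOC4339508 (-4.35) had Jijing88 means of 8.18 to 9.87 and K83 means of 3.83 to 4.35, close to background, and LOC4339509 next to them differed by -0.37. In control the 4 differed by -4.37 to -6.16, and they are among the 6 genes of 16-fold or more on chromosome 5.

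Green leaf markers were bright in both genotypes, with a mean level per array of 12.59 to 12.71 in Jijing88 alkali and 12.45 to 12.61 in K83 alkali. Of the 5 of them RCAA1 (0.53), rubisco activase, was called higher in K83, and PORA, PORB (-0.33) and CAB2R lower, and 2 were called higher without Jijing88 control replicate 3. The 4 root markers had a mean level of 8.07 to 8.32 in Jijing88 alkali and 7.88 to 7.96 in K83 alkali, with Lsi1 (-0.59) and HAK1 lower in K83 and NRAMP5 higher. Lsi2, a further root marker, read 3.53 to 3.95 on the alkali arrays, close to background. These markers include HAK1 and NRAMP5 of the transport lists, and their part in those counts was not tested. The 5 seed markers had mean levels of 5.14 to 5.40 and 5.24 to 5.34. That level was raised by GLUA-2, with means of 9.17 in Jijing88 alkali and 8.87 in K83 alkali. GLUB-4, AMY1.3 and GLUA-1 had means below the array medians in both groups, so calls cannot show whether seed content differed. By limma 0 of the 5 seed markers were called, with 1 at an unadjusted p under 0.05. Without Jijing88 alkali replicate 1, 1 of them was called lower, and without replicate 2, 1 was called higher. With the replicate block, trend and robust moderation, median centring and without dim probe sets, 1 was called lower as well.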

How the data were processed

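The table that the authors deposited holds a log2 value for each probe set on each array. RMA and limma are named in the submitters' processing notes, with no version and no role given. Base 2 was taken from the range of the values, since the notes leave it out. No further normalization was applied. Of 57381 probe sets 123 control probe sets were left out.

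Differences were fitted with limma 3.58.1 (R 4.3.3) as 4 group means over all 12 arrays, two-sided, with Benjamini-Hochberg adjustment over 57258 probe sets. The alkali and control comparisons share no array, but share the spread estimate. The fit was tested on simulated data. Precision is limited by having 3 arrays in a group.

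Through the array's annotation and a RefSeq table (ASM3414082v1, Japonica Group), 22436 probe sets had 1 gene, 95 several and 34727 none. A gene was read from its brightest probe set over the 12 arrays. Names are RefSeq symbols or synonyms, and 3 list members matched only by another family's synonym were left out. Two-sided exact permutation tests of 3 against 3 arrays cannot go below p = 0.1.

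Named were the 12 largest called differences per direction among named genes without overlap and above background, the 4 largest among locus numbers, the 6 largest per direction between the media, up to 6 with opposite calls, up to 3 called members of each of 22 lists (else the one with the smallest p), and the longest runs. Further genes that are named were chosen after their values were seen. Members, lists and rules were chosen with earlier results of these data known. Alternatives were array weights, the replicate number as a block, trend with robust moderation, median centring, leaving out dim probe sets or single arrays, single media, the median over a gene's probe sets, and an adjusted p under 0.01 for the overlap and the runs.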

Additional observations from a re-analysis of the deposited data

Results flagged for a closer look

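The difference between the genotypes under alkali and the difference between them in control were set against each other by the test of that difference in limma, which called 360 probe sets. The reported genes among them follow, with the difference under alkali minus that in control on the log2 scale. Values above 0 were found for Nramp1 (2.98), ELA3 (2.88), IRT2 (2.45), ILL8 (1.45), GH3-8 (1.18), PIP2-7 (1.14), Lsi6 (0.93) and Cht10 (0.92). Values below 0 were found for ASMT1 (-2.19), CCA1 (-1.77), BGLU22 (-1.71), PORA (-1.69), PRR95 (-1.66), ABA1 (-1.47), CHLH (-1.34), NIA1 (-1.31), cap2 (-1.31), SPX3 (-1.27), PIN5A (-1.09), ASMT3 (-0.99), PSAG (-0.94), OsTrx03 (-0.93), HSP22.3 (-0.80), SK1 (-0.74) and CAB2R (-0.63).

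Nramp1, ELA3, ILL8, ASMT1, CCA1, PORA, PRR95, ABA1, NIA1 and PIN5A were called in all 12 fits that each left out 1 array. The call was made in 10 of them for OsTrx03, 7 for IRT2, 6 for Cht10, 5 for SPX3, 4 for Lsi6 and CHLH, 3 for SK1 and HSP22.3, 2 for PIP2-7, BGLU22, ASMT3 and PSAG, and 1 for GH3-8, cap2 and CAB2R.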

How the results depend on the processing

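The count of 360 probe sets called different between the media became 658 with array weights, 656 with trend and robust moderation and 635 without dim probe sets. Leaving out 1 array gave 107 (without K83 alkali replicate 3) to 646 (without Jijing88 control replicate 3). The overlap of the calls in both media, 3877, became 2225 at an adjusted p under 0.01. The counts of probe sets called under alkali, called in control and called at 2-fold or more under alkali moved less at an adjusted p under 0.05. At that threshold they stayed within 1.5 times their value under all alternatives run. When 1 array was left out, 5879 to 9105 probe sets were called under alkali and 4551 to 6764 in control. At an adjusted p under 0.01 only 4692 were called under alkali and 3644 in control. Counts of gene lists moved further, by over 1.5 times in at least 1 direction in 19 of 22 lists. The causes were not tested.

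The replicate numbers were not taken to pair the samples, and whether same-numbered arrays share an effect was not tested. Deviations of same-numbered arrays correlated above 0.1 in 7 of 18 pairs, and at 0.17, 0.17 and 0.013 between the alkali groups. For replicate 1 they correlated at 0.15 to 0.19 in every pair of groups but the Jijing88 groups (-0.022). With the replicate number as a block, 8337 probe sets were called under alkali, 6873 in control and 322 between the media.

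Of 101 calls under alkali for genes chosen by the naming rule, 76 kept direction and call under every alternative run, and of 16 between the media 7 did, with 0 reversed. Signals near the array medians limit what can be seen of dim genes.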
